A study of Mus musculus with 2 samples.

Results

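In mouse fetal liver, 8 protein-coding genes were surrounded by unusually many open chromatin sites away from gene starts: Bcor, Nacc1, Arhgap23, Tmem107, Fcgr3, Sept9, Gm11444 and Zfp184. They are 8 of 21938 protein-coding genes. They were selected on a count: how many shared peaks away from starts lay no more than 50 kb from a start of the gene. That count describes the choice and supports nothing. A peak was shared when lists of both libraries overlapped by at least 1 bp, and distal when its middle lay over 1 kb from every start of the GENCODE basic annotation. The 8 genes had 135 such sites in all, of 14326 in the genome, and no site was counted for more than 1 of the genes. At 3 of the loci most of these sites lay on tRNA genes, at a further pair most were rich in CpG, and at the other 3 they were a mixture.

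The sample was liver of B6NCrl mouse embryos of both sexes, pooled at embryonic day 11.5. Open chromatin was mapped by DNase-seq, in which the nuclease DNase I cuts accessible DNA and the cut ends are sequenced. Both libraries, technical replicate 7 and technical replicate 1, came from 1 biological sample, and there was no other group. No test between conditions was therefore possible, and intervals given below are exact (Clopper-Pearson) 95% intervals that cover counting error only and treat clustered sites as separate. At embryonic day 11.5 the liver holds hepatoblasts and many blood precursors. A shared peak stood at a start of 3 of 6 hepatoblast markers (Foxa3, Cebpa, Onecut2), 5 of 5 markers of red cell precursors, 1 of 2 of macrophages (Spi1) and 1 of 2 of endothelium (Kdr). Technical replicate 7 listed no peak at a start of Alb. It listed one at starts of Afp and Hnf4a, where no shared peak stood.

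The lists held 86036 peaks in technical replicate 7 and 42422 in technical replicate 1. All peak densities of a library were multiples of a smallest step (tolerance 0.02 steps), and that step was 2.52 times as large in technical replicate 1. If 1 step stands for 1 cut, which the headers do not state, technical replicate 7 was 2.52 times as deep. Peaks are given below by rank percentile of density within their own list, where 100 is the strongest; of a pair of such values the first is of technical replicate 7 and the other of technical replicate 1. The same site tended to have a lower percentile in technical replicate 1, whose list is shorter. Over all distal shared peaks the medians were 73.1 and 35.7. The part of list length in this was not tested.

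Distal open sites can have several origins. Enhancers and insulators are stretches bound by transcription factors; CTCF, which binds insulators and loop anchors, has a long and well-defined motif. CpG islands are stretches of high CpG content that lie at most housekeeping promoters, and some lie away from annotated starts. Genes for tRNAs are short, often clustered, and are transcribed by RNA polymerase III from a promoter inside the gene, the A box and the B box, which the factor TFIIIC binds. The GENCODE starts used to call a site distal do not include tRNA genes, so an open tRNA gene counts as distal.

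The sequences that carry the main pattern are tRNA genes from RefSeq (GRCm38.p6, the assembly that mm10 names), each lying under a shared peak at one of these loci and printed in the direction of its transcription. Capitals mark the B box core, GTTCGANNC. They are shown because their peaks make up most of the count at these loci. The first pair stands side by side upstream of Tmem107, the next set of 3 lies on both sides of Fcgr3, and the last pair lies upstream of Zfp184.
n-TSaga4, tRNA-Ser, chr11:69037477-69037558, plus strand: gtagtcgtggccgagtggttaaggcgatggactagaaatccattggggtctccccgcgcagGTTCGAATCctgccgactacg
n-TTagt8, tRNA-Thr, chr11:69037853-69037926, plus strand: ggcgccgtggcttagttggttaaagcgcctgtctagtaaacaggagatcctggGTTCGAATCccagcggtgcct
n-TGtcc2, tRNA-Gly, chr1:171037997-171038068, minus strand: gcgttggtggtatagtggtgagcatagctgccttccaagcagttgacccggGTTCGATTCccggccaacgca
n-TDgtc4, tRNA-Asp, chr1:171037029-171037100, minus strand: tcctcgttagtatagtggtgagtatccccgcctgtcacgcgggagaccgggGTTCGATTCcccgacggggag
n-TLcag9, tRNA-Leu, chr1:171101838-171101920, minus strand: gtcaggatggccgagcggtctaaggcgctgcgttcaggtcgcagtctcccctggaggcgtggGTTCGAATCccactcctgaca
n-TSaga1, tRNA-Ser, chr13:21937094-21937175, minus strand: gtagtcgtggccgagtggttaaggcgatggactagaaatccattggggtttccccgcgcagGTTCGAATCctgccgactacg
n-TRtct3, tRNA-Arg, chr13:21917162-21917247, minus strand: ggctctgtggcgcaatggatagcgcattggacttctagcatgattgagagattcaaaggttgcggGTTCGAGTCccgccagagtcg
Counted from the 5′ end, the B box core began at base 52 or 54 of the 3 genes of 72 or 74 bp. It began at base 62 to 66 of those for tRNA-Ser, tRNA-Leu and tRNA-Arg, which carry a longer variable arm or an intron.

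The counts that chose the genes were 22 for Bcor and Nacc1, 18 for Arhgap23 and Tmem107, 15 for Fcgr3, 14 for Sept9, and 13 for Gm11444 and Zfp184. Across all protein-coding genes the median was 1, and 10365 genes (47.2%) had none. Taking 1 gene per window of 100 kb, Zfpm1 with 16 and Thra with 15 also stood among the first 10, and the first genes left out had 12, among them Bbc3, Bri3bp and Colgalt1. Exactly 12 were found at 21 genes. Lyl1, a neighbour of Nacc1 with 20, shared 19 of its sites with it. A distal peak of technical replicate 7 was also listed in technical replicate 1 in 29.8% of cases over the genome. Within the gene plus 50 kb that share was 14 of 15 near Gm11444, 21 of 23 near Tmem107, 22 of 27 near Fcgr3, 27 of 36 near Nacc1 and 35 of 49 near Bcor. It was 22 of 33 near Arhgap23, 14 of 25 near Zfp184 and 17 of 32 near Sept9. The rule asked for shared peaks, so these shares follow from it. With technical replicate 7 alone the 8 genes had 218 distal peaks, with technical replicate 1 alone 175, and within 20 kb of a start 62 shared ones. Counted from the 5′ end of the gene alone, in place of every start, Bcor had 12, Arhgap23 11 and Sept9 3.

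**Figure D1:**
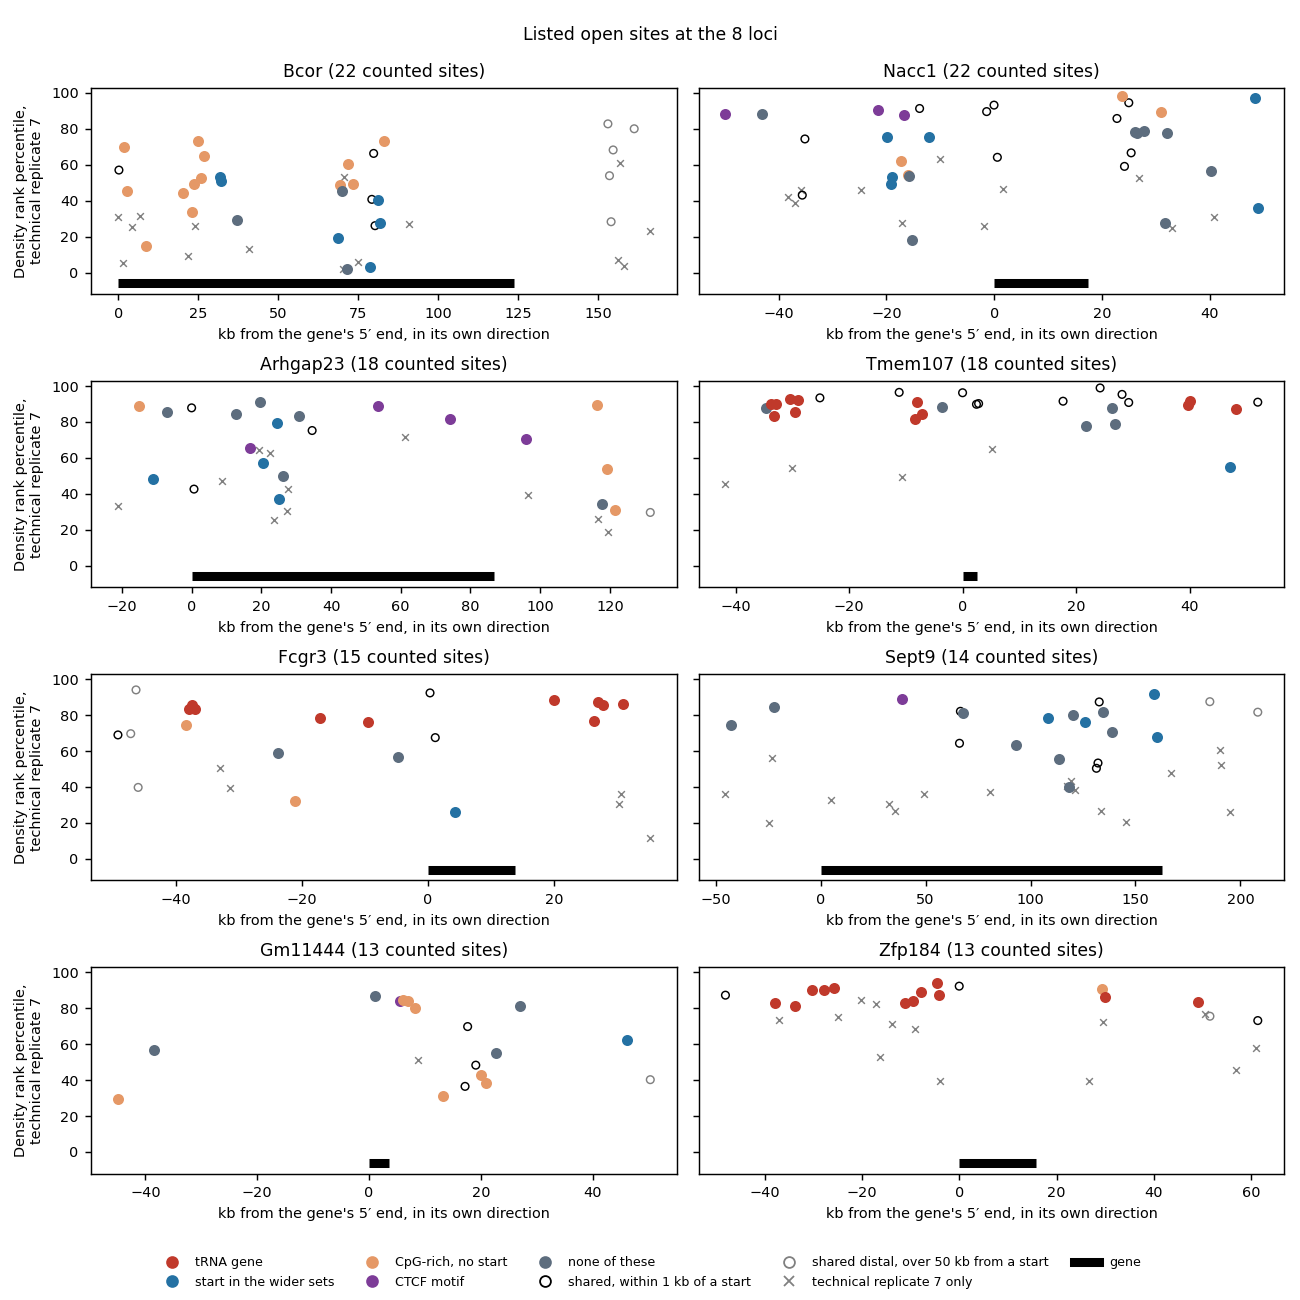
Density rank percentile in technical replicate 7 (y axis) of every site listed in it, against distance from the gene's 5′ end in kb (x axis, in the gene's own direction; black bar, the gene), 1 panel per gene. Filled points are the 135 counted sites, coloured by what they overlap or resemble; open circles are other shared sites and crosses are sites of technical replicate 7 alone. The counted tRNA sites of Tmem107, Fcgr3 and Zfp184 sit at or above a percentile of 76.0, while the counted sites of Bcor stay at or below 73.5.

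Each of the 135 sites was put in the first of 5 classes it met. A tRNA gene of RefSeq lay under 34 sites (25.2%, interval 18.1 to 33.4), against 1.12% of all distal shared peaks. A start in the full GENCODE or RefSeq transcript sets, both wider than the basic set, lay within 1 kb of 23 further sites (17%, interval 11.1 to 24.5), against 16.3%. A further 31 (23.0%, interval 16.2 to 31) had promoter-like CpG content with no such start, against 11.5%. A CTCF motif marked 9 more (6.67%, interval 3.09 to 12.3), against 21.4%, and 38 (28.1%, interval 20.8 to 36.5) had none of these, against 49.7%. In this order, which takes out tRNA sites first, the share near a start of the wider sets was close to that of the genome. At the 5 loci without tRNA genes it was 21 of 89 sites (23.6%, interval 15.2 to 33.8). Over all distal shared peaks it was 17.7% with tRNA gene starts included. The shares on tRNA genes and in CpG-rich sequence were above those of the genome. The share with a CTCF motif, counted after the tRNA, start and CpG-rich classes, was below. Since the genes were picked with these data known and sites of a locus lie together, the shares are descriptions of 8 loci.

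**Figure D2:**
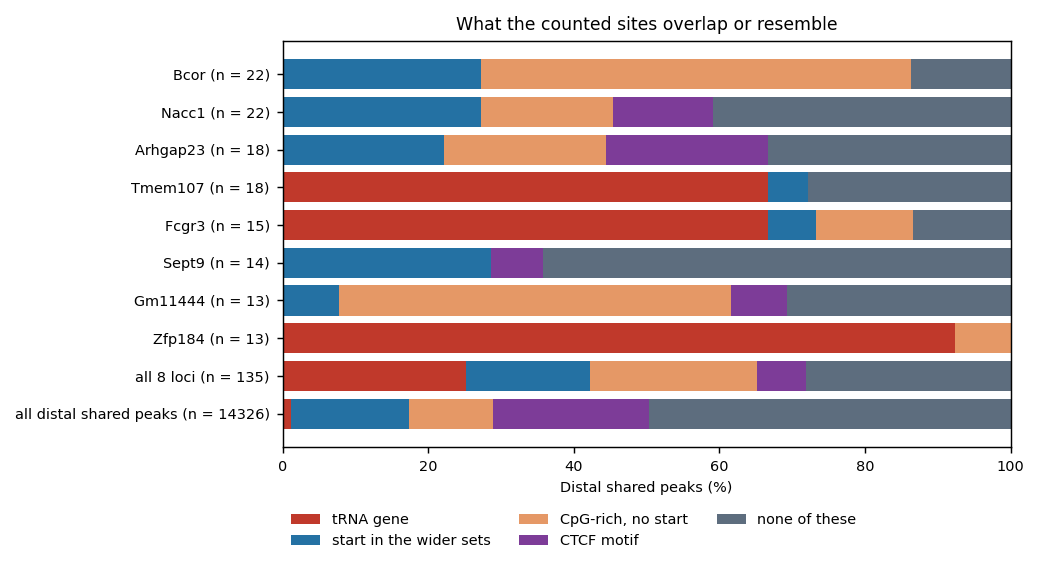
Share of distal shared peaks (x axis, %) in each of 5 classes, for each locus, for all 8 loci and for the genome; n is the number of sites. Tmem107, Fcgr3 and Zfp184 hold 66.7%, 66.7% and 92.3% of their sites on tRNA genes, and the other 5 loci hold none.

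Counted irrespective of that order, 55 of the 135 sites (40.7%, interval 32.4 to 49.5) were CpG-rich, with a GC content of at least 50% and an observed over expected CpG ratio of at least 0.6 in 200 bp around the middle. The share was 17.6% of all distal shared peaks and 75.9% of shared peaks at starts. Introns held 62 sites (45.9%, interval 37.3 to 54.7), against 47.6% over the genome; 18 lay in exons and 55 between genes. The CTCF motif was found within 75 bp of the middle of 12 sites (8.89%, interval 4.68 to 15.0), against 25.4%. All 12 were among the 89 sites of the loci without tRNA genes (13.5%, interval 7.17 to 22.4). Over the genome 3.11% of distal shared peaks on tRNA genes and 11.7% of CpG-rich ones held it. At least 1 footprint of technical replicate 7, a short stretch protected from cutting, lay in 106 sites (78.5%, interval 70.6 to 85.1), against 81.9%. Pooled over the 135 sites, intron and footprint shares were thus near those of the genome, but groups of sites differed. Of the 34 sites on tRNA genes, 1 (2.94%) lay in an intron and 33 (97.1%) held a footprint. Of the 89 sites of the loci without tRNA genes, 58 (65.2%, interval 54.3 to 74.96) lay in introns, above the genome. Footprints lay in 64 of the 89 (71.9%, interval 61.4 to 80.9), below the genome. Of the 12 remaining sites, 3 lay in introns and 9 held a footprint. A scan for a tRNA-like fold, which uses no annotation, found 32 sites (23.7%, interval 16.8 to 31.8), against 1.06%, and all 32 also held a RefSeq tRNA gene.

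Neighbouring counted sites lay close together, as the choice by count requires. The median distance between middles was 2699 bp over 127 pairs of neighbours, against 43100 bp over the genome. It was 919 bp at Tmem107, 1155 bp at Nacc1, 1490 bp at Bcor, 2814 bp at Zfp184, 3528 bp at Fcgr3, 3878 bp at Arhgap23, 4321 bp at Gm11444 and 8574 bp at Sept9. Of the 127 distances, 40 (31.5%) were under 1 kb, against 7.32% over the genome. Edge to edge, 8 pairs of neighbouring sites (6.30%) touched, against 1.69% over the genome. Some open stretches were thus listed as several peaks. Joining sites up to 1 kb apart left 8 groups of 18 sites at Tmem107, 12 of 22 at Nacc1, 14 of 22 at Bcor and 10 of 15 at Fcgr3. It left 10 of 13 at Gm11444, 11 of 13 at Zfp184, 16 of 18 at Arhgap23 and all 14 at Sept9. In either library alone, whose lists hold more peaks, the median distance was shorter, 1278 bp in technical replicate 7 and 1275 bp in technical replicate 1.

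**Figure D3:**
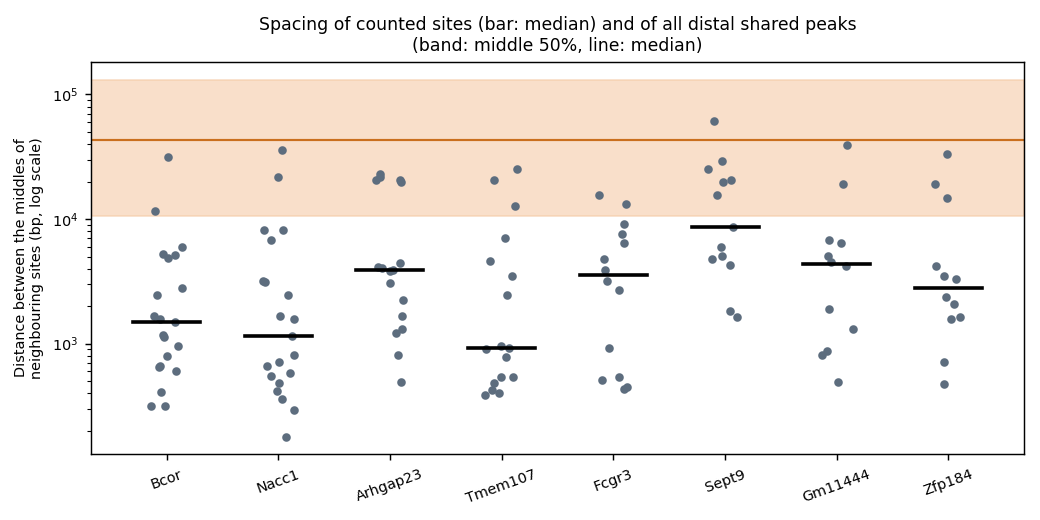
Distance in bp between the middles of neighbouring counted sites (y axis, log scale) at each locus (x axis), with bars at the medians; the band and line give the middle 50% and the median of all distal shared peaks. Every locus median, from 919 to 8574 bp, lies below the band, which begins at 10515 bp.

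Tmem107, chr11:69070806-69073293 on the plus strand, encodes a membrane protein of the transition zone of cilia. Its own body, 2488 bp long, held none of its 18 counted sites. RefSeq places 14 tRNA genes in the gene plus 50 kb, and all 14 lay under shared peaks, 12 sites in all, since a pair of the sites covered 2 tRNA genes each. The sites stood in 3 clusters. The first ran from -33.8 to -29.0 kb (negative values are upstream of the 5′ end) and held 6 tRNA sites. The second ran from -8.42 to -7.21 kb with 3, and the last from 39.7 to 48.1 kb with 3.

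Within the first cluster, the sites of n-TSaga4 and n-TTagt8, whose sequences are printed above, followed each other at 389 bp. Their percentiles were 83.4 and 90.2 in technical replicate 7 and 75 and 86.5 in technical replicate 1. The site of n-TPcgg3 (tRNA-Pro) had 93.0 and 97.6, and that of n-TWcca7 (tRNA-Trp) 92.0 and 98.5. In technical replicate 1 the site of n-TWcca7 was the highest of all 135, at rank 650 of the list, with a density of 5.01. In technical replicate 7 its rank was 6883, with a density of 2.99. The second cluster held n-TTagt7 with n-TSgct3 at 91.3 and 92.2, and n-TWcca6 at 84.5 and 89.7. The third held n-TTagt5 at 89.5 and 80.5, n-TScga3 at 91.6 and 97.1, and n-TGgcc5 at 87.2 and 85.5. All 12 tRNA sites were thus among the stronger 20% of peaks in technical replicate 7, and 5 of them ranked higher in technical replicate 1 than in technical replicate 7.

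The other 6 sites near Tmem107 held no tRNA gene. An exonic site of Ctc1, which encodes a subunit of a complex that maintains telomeres, stood 957 bp from the first tRNA site, at 88.1 and 55.8. A pair in an intron of the clock gene Per1 had 88.0 and 77.8, and 79.0 and 27.3. Sites between genes at -3.72 kb and 21.7 kb had 88.3 and 64.7, and 78.0 and 53.7, and a site at 47.2 kb, 916 bp from a RefSeq start of Hes7, had 55.1 and 54.6. None of the 18 sites held the CTCF motif.

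Zfp184, chr13:21945094-21960779 on the plus strand, encodes a zinc finger protein. The gene held none of its 13 sites, 10 of which lay upstream, and 12 of the 13 held a tRNA gene. The 12 had percentiles from 81.1 to 94.1 in technical replicate 7 and from 61.7 to 92.6 in technical replicate 1. The strongest in technical replicate 7 was that of n-TDgtc12 (tRNA-Asp), in an exon of the predicted gene Gm11280, with densities of 3.59 and 3.45. In technical replicate 1 the strongest tRNA site was n-TSaga1, printed above, at 92.6, with 88.8 in technical replicate 7. The site without a tRNA gene, at chr13:21974227-21974516, had 90.9 and 93.8, was CpG-rich and stood 715 bp from the site of n-TMcat8, in the same hotspot. Hotspots are broader regions of raised cutting called by the authors, each with a −log10 value of its false discovery rate. At these sites that value ran from 12.4 to 39.0 in technical replicate 7 and from 3.54 to 24.3 in technical replicate 1.

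Of the 20 tRNA genes in the gene plus 50 kb of Zfp184, 14 lay under shared peaks and the other 6 under peaks of technical replicate 7 alone. The 6 included both tRNA-Lys genes of the locus, n-TKttt23 at 73.6 and n-TKttt22 at 39.8, and n-TStga2 at 84.7, n-TSaga6 at 82.3, n-TQctg10 at 75 and n-TMcat10 at 71.2. Their median, 74.3, was below the 86.8 of the 14. No tRNA gene of this locus, and none of Tmem107, lacked a peak.

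Fcgr3, chr1:171051174-171064935 on the minus strand, encodes a low-affinity receptor for IgG found on macrophages and other leukocytes. Of its 15 counted sites, 10 held a tRNA gene and 1 lay inside Fcgr3. The tRNA sites fell on both sides. Upstream, a run of 3 neighbouring sites from -37.9 to -37.0 kb held n-TGtcc3, n-TDgtc5 and n-TLcag9, at 83.5, 85.9 and 83.7 in technical replicate 7 and 88.8, 87.1 and 86.7 in technical replicate 1. Downstream, sites from 20 to 31 kb held n-TGgcc4 at 88.6 and 91.7, n-TLcag3 at 76.6 and 46.3, n-TGtcc2 at 87.0 and 90.5, n-TDgtc4 at 85.6 and 55.4, and n-TNgtt6 (tRNA-Asn) at 85.9 and 83.7. The sites of n-TGtcc2 and n-TDgtc4, 927 bp apart, were thus close in technical replicate 7 and far apart in technical replicate 1. Nearer to the gene, the sites of n-TGgcc14 and n-TGgcc13 had 78.4 and 70.8, and 76.0 and 69.9. The intronic site of Fcgr3, 1241 bp from its start in the basic set, was weak, at 26.1 and 22.8, and the 4 other sites ran from 32.3 to 74.5 and from 27.3 to 55.8.

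This locus held 25 tRNA genes, of which 13 lay under shared peaks. At the 5′ end of Fcgr3 and upstream of it, tRNA genes stood in 3 repeated units, each in the order tRNA-Glu, tRNA-Gly, tRNA-Asp, tRNA-Leu, tRNA-Gly. The units were 2538, 2581 and 2541 bp long, and the later ones started 7628 and 7614 bp after the one before. Of the 15 genes in the units, 3 lay under shared peaks, 1 in each. Of the 10 tRNA genes outside the units, all 10 did. In the units between 0% and 23.8% of the 31-base words in and around each gene (150 bp to each side) occurred only at that place in the genome, whereas outside them at least 83.9% did. The 3 genes of the units under shared peaks, n-TGtcc1, n-TGgcc13 and n-TGgcc14, were those with the highest values, 22.2%, 23.8% and 17.3%, and the 12 others had at most 9.09%. How multiply mapped reads were handled is not given in the sources used here, and its part in the missing peaks was not tested. The peak over n-TGtcc1, 45 bp from the start of Mir6546 and so not counted as distal, had 92.4 and 99.4, the highest of the locus in technical replicate 1. In technical replicate 7 the highest was the joined site that holds n-TVcac6 (tRNA-Val), at 94.1, which lies over 50 kb from the start of Fcgr3 in the basic set. That value belonged to a peak beside n-TVcac6. Peaks of technical replicate 7 that covered a tRNA gene under a shared peak at this locus reached at most 92.4.

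The RefSeq annotation used here places 403 tRNA genes, none of them on chromosome 18, so genes there are not counted in the totals or among identical copies. Of the 403, 216 lay under a shared peak (53.6%), 52 under a peak of technical replicate 7 alone, 3 under one of technical replicate 1 alone and 132 under none. The 216 overlapped a joined region. A peak of technical replicate 7 itself covered 211 of them, and one of technical replicate 1 covered 213. Of the 59 at these 3 loci, 41 lay under a shared peak; these loci were chosen for shared peaks. Outside the loci the count was 175 of 344 (50.9%). Of the 61 tRNA genes with under 50% unique words, 4 lay under a shared peak, against 212 of the other 342 (62.0%). The 161 distal shared peaks on tRNA genes had median percentiles of 87.6 and 80.3, and the 34 counted here had 86.1 and 82.1. The 161 include these 34. Both medians stood above the medians of all distal shared peaks, 73.1 and 35.7. Of the 34, 11 ranked higher in technical replicate 1 than in technical replicate 7, as did 29.8% of the 161 and 5.07% of all distal shared peaks. Among all shared peaks at starts 18.2% did, and their median percentiles were 84.5 and 70.1.

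The tRNA genes of these loci encode 15 isotypes as RefSeq names them, and 14 of them had a gene under a shared peak, the exception being tRNA-Lys. Of the 59 genes, 48 had the same sequence as another tRNA gene, so that n-TDgtc4 near Fcgr3 was 1 of 13 genes with the same sequence, among them n-TDgtc9 near Tmem107 and n-TDgtc12 near Zfp184. These identical genes had percentiles of 85.6, 80.1 and 94.1 in technical replicate 7 and 55.4, 79.4 and 90.4 in technical replicate 1. At the Fcgr3 locus itself n-TDgtc5, of the same sequence, had 85.9 and 87.1. Genes alike in every base thus differed in rank between loci. Within the Fcgr3 locus n-TDgtc4 and n-TDgtc5 differed in technical replicate 1 but were close in technical replicate 7.

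Peak summits and footprint centres were placed along the tRNA genes. Only footprints that overlapped a tRNA gene were taken, whereas a summit could lie anywhere in its peak. Their medians therefore cannot be compared with each other. The summit of the peak in technical replicate 7 was a median of 25.5 bp downstream of the 5′ end of the 38 genes under shared peaks with a peak of that list, with a range from -78 to 163 bp. Footprint centres in the genes under shared peaks had a median of 61 bp from the 5′ end (51 footprints; middle 50% from 50 to 64 bp). The B box core had its middle at a median of 58 bp. Of the 34 genes under shared peaks with a B box core, 27 (79.4%, interval 62.1 to 91.3) had it under a footprint of technical replicate 7, and 7 (20.6%, interval 8.70 to 37.9) had a footprint in the first 20 bp. Over the genome the shares were 118 of 161 (73.3%) and 36 of 161 (22.4%). In the footprint list of technical replicate 1, made in another way than that of technical replicate 7, 26 of the 34 had the core covered. The part of the sequence preference of DNase I in these footprints was not tested.

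**Figure D4:**
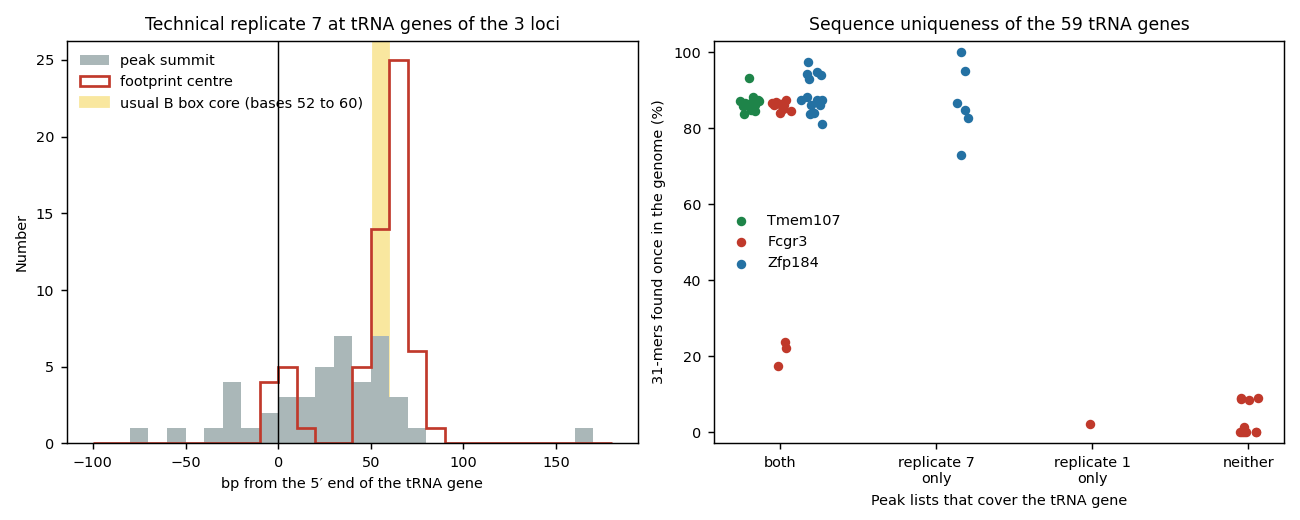
Left, number of tRNA genes or footprints (y axis) by the distance in bp of the peak summit or footprint centre of technical replicate 7 from the 5′ end of the tRNA gene (x axis), at the 3 loci; the yellow band spans the usual place of the B box core. Right, percentage of 31-base words that are unique in the genome (y axis) for each of the 59 tRNA genes by the peak lists that cover it (x axis). Genes under both lists are those that overlap a joined region. Every gene without a peak belongs to the Fcgr3 locus and has at most 9.09%.

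Bcor, chrX:12036740-12160355 on the minus strand, encodes the BCL6 corepressor, a subunit of a variant Polycomb complex that binds CpG-rich promoters. All 22 counted sites lay in introns of Bcor itself. They stood in 3 stretches: 3 from 1.80 to 8.52 kb past the 5′ end, 9 from 20.1 to 37.1 kb and 10 from 68.7 to 83.1 kb. No shared site lay in the 31.6 kb between the last of these stretches and the one before. Of the 22 sites, 19 were CpG-rich, with a median GC content of 66.8% and a median CpG ratio of 0.81. Each of the 3 others met the GC limit but not the ratio. A start in the wider sets lay within 1 kb of 6 sites: 5 belonged to other transcripts of Bcor and 1 to the predicted gene Gm46687. No site held a CTCF motif, and 12 held the CACCC motif (CCNCNCCC, on either strand, within 75 bp of the middle), which 29.1% of all distal shared peaks and 54.5% of those at starts held.

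To show what these sites look like, a stretch of 150 bp around the middle of the site at 71.6 kb is printed from the plus strand of mm10, with every CpG in capitals; it holds 21.
chrX:12088654-12088803: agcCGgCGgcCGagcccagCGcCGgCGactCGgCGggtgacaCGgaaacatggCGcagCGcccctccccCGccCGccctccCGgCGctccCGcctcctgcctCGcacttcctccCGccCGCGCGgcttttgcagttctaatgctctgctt
That site ranked 60.3 and 47.9, the highest of the 22 counted sites in technical replicate 1.

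The Bcor sites were the weakest of the 8 loci. Their median percentile was 47.2 in technical replicate 7 (range 1.91 to 73.5) and 19.3 in technical replicate 1 (range 2.77 to 47.9), so all 22 lay in the lower part of the list of technical replicate 1. The site at 83.1 kb had 73.3 and 6.99, and the site at 24.7 kb 73.5 and 11.4. A site of 227 bp at 71.3 kb went the other way, with 1.91 and 34.1. Some of these sites thus stood at opposite ends of the locus's range in the 2 libraries. Over all 280 distal shared peaks of the X chromosome the medians were 54.2 and 10.5, and over all 2522 CpG-rich distal shared peaks they were 75.5 and 54.6. The embryos were of both sexes, and the part of X dosage in these ranks was not tested. The hotspots were broad: 22 sites lay in 13 hotspots of technical replicate 7 and 15 of technical replicate 1, the widest 3170 and 3760 bp. The median hotspot width at the 22 sites was 2149.5 and 1767 bp, against 474 and 501.5 bp at all distal shared peaks. At all CpG-rich distal shared peaks it was 806 and 914 bp. The widest hotspots at Nacc1 were of like width, 3147 and 3543 bp. At the 3 shared sites of Bcor's own starts near 80 kb and the 1 at its 5′ end, the median percentiles were 48.9 and 31.2, against 47.2 and 19.3 at the counted sites. A further 5 shared sites, past the 3′ end at 153 to 161 kb and over 50 kb from any start of the gene, were not counted; they ranked from 28.3 to 82.8 and from 39.3 to 65.2.

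Gm11444, chr11:85846790-85850333 on the minus strand, is a predicted gene between the T-box genes Tbx2 and Tbx4. Of its 13 sites, 1 lay in its own intron, 2 in introns of Tbx4, 4 between Gm11444 and Tbx2, 1 in an exon of Tbx2, and 5 in introns of 2610027K06Rik. The first 5 of these downstream of the 5′ end, from 1.04 to 8.20 kb, had percentiles from 80.4 to 86.8 in technical replicate 7 and from 52.2 to 73.4 in technical replicate 1. Apart from a site at 26.9 kb with 81.3 and 69.9, the others lay between 29.6 and 62.1, and between 8.35 and 34.1. Of the 13, 7 were CpG-rich, all without a start in the wider sets. The strongest of the 5 in technical replicate 7, in the intron of Gm11444, was not CpG-rich and held a match to the composite of an E-box and a GATA motif bound by the TAL1 and GATA1 complex of red cell precursors. That composite was found in 2 of the 135 sites and in 4.91% of all distal shared peaks. RefSeq records tested enhancers over 2 sites: that at -44.9 kb lies in an element active in lung and trachea, and that at 20.1 kb in an element active in the atrioventricular canal and outflow tract of the heart. Neither record names liver, and these sites ranked 29.6 and 28.2, and 42.6 and 30.8.

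The CpG-rich site at 8.20 kb, with 80.4 and 52.2, is printed in the same way for comparison with that of Bcor. It holds 20 CpGs and has a GC content of 78.5% in 200 bp.
chr11:85842058-85842207: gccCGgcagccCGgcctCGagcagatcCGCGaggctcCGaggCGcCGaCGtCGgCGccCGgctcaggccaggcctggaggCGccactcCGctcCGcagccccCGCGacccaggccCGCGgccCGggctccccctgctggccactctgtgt

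Nacc1, chr8:84670483-84687862 on the minus strand, encodes a BTB/POZ transcriptional regulator. None of its 22 sites lay inside it. Upstream, 12 sites lay in Nfix, which encodes a nuclear factor I protein, 4 of them also in the overlapping gene Lyl1, which encodes a blood progenitor factor. Downstream, 10 sites followed from 23.8 to 48.9 kb, 8 of them around the immediate early gene Ier2 and 2 in the calcium channel gene Cacna1a. Between -19.9 and -15.3 kb, 8 sites lay in exons or introns of Nfix and Lyl1 at distances from 179 to 1670 bp. They had percentiles from 18.2 to 87.4 and from 28.2 to 74.7.

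The strongest distal site of all 8 loci in technical replicate 7 lay between genes at chr8:84663953-84664258, 1027 bp from the start of the long non-coding RNA Gm26664, barely past the limit of 1 kb. Its ranks were 1306 of 86036 peaks and 1605 of 42422, percentiles of 98.5 and 96.2, and its hotspots had −log10 values of 108.8 and 35.1. It was CpG-rich. The next strongest, in an exon of Cacna1a, had 97.3 and 82.1, held 9 footprints, the most of any of the 135, a CTCF motif and a GC content of 81%. A start in the full GENCODE set lay 548 bp from it and one in RefSeq 422 bp. The strongest pair at this locus thus lay near annotated starts.

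Other Nacc1 sites had no start near them. A pair in introns of Nfix, at -49.9 and -21.5 kb, held CTCF motifs and ranked 88.0 and 69.3, and 90.5 and 76.6. Another intronic site, at -43.1 kb, ranked 88.4 and 72 and lay in an element that RefSeq records as an enhancer active in midbrain and heart. It held 2 matches to the composite of an E-box and a GATA motif. Sites between genes downstream of Ier2 ranked 89.3 and 62.9 at 30.9 kb, and 78.6 and 60.3 at 27.7 kb. The locus thus held sites with a CTCF motif, a site with the composite motif, and sites close to starts.

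Arhgap23, chr11:97415533-97502402 on the plus strand, encodes a GTPase-activating protein. Of its 18 sites, 10 lay in its introns, 3 upstream of it and 5 in exons of Srcin1, which encodes an adaptor protein of Src signalling. The intronic site at 19.7 kb was the strongest, at 91 and 81.9 with −log10 values of 51.5 and 21.2, and had neither a CTCF motif, CpG-rich sequence nor a start within 1 kb. The site at 53.6 kb, with a CTCF motif, had 89.1 and 50.7. CTCF motifs marked 5 of the 18 sites (27.8%), the most of the 8 loci and near the 25.4% of the genome. Starts in RefSeq or the full GENCODE set lay within 1 kb of 4 sites, 3 of them RefSeq starts of Arhgap23. At the site at 24.6 kb, ranked 79.7 and 74.9, the RefSeq start was 28 bp from the middle. The Srcin1 exon sites ran from 31 to 89.7 and from 16.6 to 73.7.

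Sept9, chr11:117199661-117362325 on the plus strand, encodes a septin, a cytoskeletal GTPase, and is the longest of the 8 genes. With 5 starts spread along it, its window was the widest. Of its 14 sites 12 lay in its introns, and counting from the 5′ end of the gene alone left 3. No site was CpG-rich: the median CpG ratio was 0.20, the lowest of the 8 loci, against 0.34 over all distal shared peaks. The strongest in technical replicate 7, at 158.8 kb, had 92.0 and 80 with −log10 values of 64.2 and 20, and stood 936 bp from a start in the full GENCODE set. A site at 38.7 kb with a CTCF motif had 89.2 and 83.3, the highest of the 14 in technical replicate 1. All 14 ranked lower in technical replicate 1, with medians of 77.3 and 46.2. Over all distal shared peaks only 5.07% ranked higher there. Of the 14, 9 (64.3%) had none of the marks above, against 49.7% of all distal shared peaks.

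As examples, 1 CTCF motif from each of the 3 mixed loci is printed with 10 bases to each side and the motif in capitals. They came from Nfix (at -21.5 kb from Nacc1), Arhgap23 (at 53.6 kb) and Sept9 (at 38.7 kb). The last sequence is the composite of an E-box and a GATA motif in the Nfix enhancer. Each is given 5′ to 3′ on the strand of the motif, with mm10 coordinates of the capitals.
chr8:84709345-84709358, plus strand: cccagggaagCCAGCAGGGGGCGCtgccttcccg
chr11:97469113-97469126, minus strand: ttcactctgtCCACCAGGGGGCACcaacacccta
chr11:117238342-117238355, plus strand: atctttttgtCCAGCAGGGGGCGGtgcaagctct
chr8:84730979-84730995, minus strand: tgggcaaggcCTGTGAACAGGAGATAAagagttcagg
A match of letters describes the sequence alone, and these sites were chosen after their values were seen.

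Between the libraries the loci differed in rank, as the plot of both percentiles shows. A site ranked higher in technical replicate 1 than in technical replicate 7 at 5 of 18 sites of Tmem107, 5 of 15 of Fcgr3, 5 of 22 of Nacc1, 4 of 22 of Bcor, 2 of 13 of Zfp184, 1 of 18 of Arhgap23, and none of Sept9 or Gm11444. That was 22 of the 135 (16.3%), against 5.07% of all distal shared peaks, 14.6% of the CpG-rich ones and 18.2% of shared peaks at starts. A locus with none was thus like most distal sites. The upper quartile of all distal shared peaks in technical replicate 1 was a percentile of 56.6. In technical replicate 1, 4 sites of Tmem107, 3 of Zfp184, 2 of Fcgr3 and 1 of Nacc1 reached the top 10% of the list, and none of the other 4 loci did. Over all 135, 7 sites (5.19%) were in the top 10% of both lists, 5 of them on tRNA genes, against 1.53% of all distal shared peaks and 18.9% of shared peaks at starts. The density step differed between the libraries, and the part of depth in these differences was not tested.

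**Figure D5:**
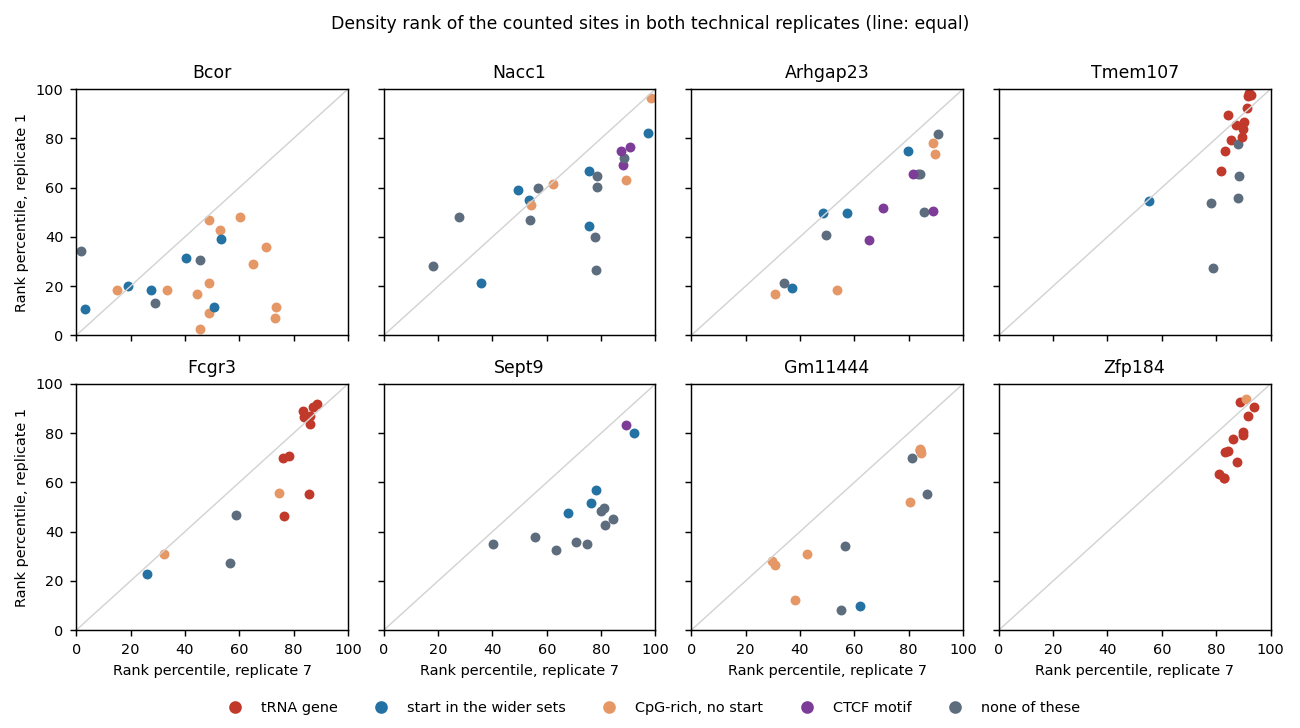
Density rank percentile of each counted site in technical replicate 1 (y axis) against technical replicate 7 (x axis), 1 panel per locus, coloured by class; the line marks equal percentiles. The tRNA sites lie toward the upper right, from 46.3 to 98.5 on the y axis with a lower quartile of 71.2. All Bcor points lie below 50 on that axis.

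Further short motifs were counted on both strands within 75 bp of the middle of each site. The B box core was in 18 of the 34 tRNA sites and in none of the 101 others, and in 0.733% of all distal shared peaks. The GATA motif AGATAA was in 11 of 135 (8.15%), against 9.0%. CCAAT was in 26 (19.3%), against 15.4%, and the NRF1 motif in none, against 0.30%. A RefSeq enhancer element overlapped 3 of 135 sites (2.22%), against 1.29%. Histone marks and transcription were not measured here, so a site without a start, tRNA gene or CTCF motif cannot be told to be an enhancer from these files.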

How the data were processed

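Liver of pooled mouse embryos was measured by DNase-seq in 2 libraries, technical replicates of 1 biological sample. Coordinates are on mm10, per the labels. The sources used here do not name the aligner or the callers. The deposited peak lists give a density signal per peak, the deposited hotspots the highest −log10 of the FDR within each, and the deposited footprints of technical replicate 1 a constant 0.01, read as a p-value threshold. Each library had 2 peak lists of this format and technical replicate 7 had 2 footprint lists; the shorter was used and the longer was an alternative. Per the accompanying notes, the peak and hotspot lists used were made from the reads, and the footprints of technical replicate 1 from an alignment file. Its peak and hotspot lists made from alignment files were not used.

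Peaks of both libraries overlapping by at least 1 bp were joined into shared regions, and the strongest peak of each library gave the percentile. A region belonged to a gene if its middle lay within 50 kb of a start in GENCODE vM21 (basic). The class was read at the middle. CpG content was taken in 200 bp and motifs in 150 bp around the middle, from the GRCm38.p6 sequence. The fold scan asked for at least 6 of 7 acceptor pairs and 4 of 5 T stem pairs. Annotated tRNA genes, starts and enhancers came from RefSeq. Scripts used Python 3.11.15, numpy 2.4.6, scipy 1.17.1, pysam 0.24.0 and numba 0.67.0, and overlaps and the fold scan were tested on simulated data.

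The members, gene lists and alternatives were chosen with earlier results of these data known. The text names the 8 genes, the genes just inside and outside the choice, Lyl1, and for each site the gene it lies in or nears; other names were chosen after their values were seen. No test across samples was run, as there is 1 biological sample. Alternatives were each library alone, longer lists, a stricter overlap, other distances, window sizes and scan settings.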

Additional observations from a re-analysis of the deposited data

How the results depend on the processing

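Of 56 alternative values for the 8 summary results, 47 stayed within 1.5 times the count or within the counting interval of the value reported. The number of distal shared peaks was 175 to 218 in the single libraries and 62 within 20 kb. The median spacing was 1275 to 1278 bp in the single libraries, and the median of the mean rank percentile, 65.1 over both libraries, was 49.6 to 59.7. The share with a tRNA-like fold was 16.5% to 20% in the single libraries. The share with a footprint, a result defined by footprints of technical replicate 7, was 62.8% to 62.9% at the sites of either library alone. With the longer footprint list of technical replicate 7 the share over the 135 shared sites was 94.1%. Footprints of technical replicate 1, made in another way, lay in 125 of the 135 (92.6%), against 95.6% of all distal shared peaks. A single library holds more sites because its peaks need not be shared, so its values come from other sites. The share on RefSeq tRNA genes, added after seeing the data, was 17.9% to 21.1% in the single libraries. With technical replicate 7 alone, Bcor had 40 sites, Nacc1 36, Arhgap23 32, Sept9 27, and Fcgr3 and Zfp184 23 each; with technical replicate 1 alone Gm11444 had 21. Technical replicate 1 listed fewer peaks, and what depth limits there was not tested. No paired analysis was possible because both libraries belong to 1 group.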
